A study of Mus musculus with 8 samples.

Results

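The genes described here are 42 genes of the G2 phase and of mitosis, out of 54146 gene identifiers in the count tables, and they were chosen by symbol from a fixed list, each with 1 row in both tables. Their levels were compared between untreated mouse embryonic stem (mES) cells and mES cells given CX-5461, an inhibitor of RNA polymerase I and so of ribosomal RNA synthesis. Cells of both conditions were E14 wild-type mES cells, labelled as derived from the inner cell mass, and were grown for 2 days on mouse embryonic fibroblast (MEF) feeder cells in medium with LIF and the 2i inhibitors. Single-cell RNA-seq libraries were made with 10x Genomics 3' chemistry, and values are counts of unique molecular identifiers (UMIs), each of which marks 1 captured RNA molecule. The labels name 4 samples per condition, while all barcodes of a condition lie in 1 table that does not say from which sample a cell came. With 1 library per condition, no test between conditions was possible, and all 95% intervals cover counting error only.

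A cell that has copied its DNA enters mitosis when the kinase Cdk1, bound to cyclin B, is switched on by Cdc25 phosphatases. Polo-like and Aurora kinases then build the spindle, the spindle checkpoint holds back the anaphase-promoting complex until every chromosome is attached, and that complex, with its activator Cdc20, destroys cyclin B and securin so that sister chromatids part. Many of the genes are transcribed mainly in G2 and mitosis, through the CCAAT box bound by NF-Y and the cell cycle homology region (CHR), a short element bound by the DREAM and MuvB complexes. The p53 target Cdkn1a encodes p21, an inhibitor of cyclin-dependent kinases through which such genes are known to be repressed. ES cells divide fast and spend little time in G1.

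ES cells were taken as cells with at least 5000 UMIs, at most 0.1 of UMIs on mitochondrial genes and at most 0.2 of marker UMIs on a fibroblast list, and feeder cells as those with at least 0.8. This gave 2449 control and 4010 CX-5461-treated ES cells, with 15685 and 14701 UMIs per cell in the median, and 165 and 150 feeder cells, with 21813 and 23743.5. Between the limits lay 27 and 11 cells, and 5 and 3 had under 5 marker UMIs. All 15 ES markers were detected in the ES cells, where the list stood at 8323 and 8809 CPM (UMIs scaled to the same library total, as counts per 1e6), while the fibroblast list had a median over ES cells of 78.7 and 128 CPM. In feeder cells the median of the ES list was 236 and 115 CPM and that of the fibroblast list 3986 and 6779.6 CPM. Summed over ES cells the fibroblast list stood at 92.2 CPM in control and 144 CPM after CX-5461, a primitive endoderm list at 5.52 and 9.84, and a macrophage list at 10.1 and 26.7, the last 2 with a median of 0 over cells. The libraries also differed in ribosomal protein genes, 28.6% of ES cell UMIs in control and 23.6% after CX-5461, and in the median share of mitochondrial UMIs, 1.92% and 4.01%. With both gene groups left out of the totals, the log2 ratio of the G2/M sum in ES cells was 0.18, against 0.25 on all UMIs and -0.11 relative to the median gene. The part of the marker lists in the results was not tested. Barcodes are running numbers, so barcodes shared by the libraries could not be counted.

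The start regions of these genes hold the CHR core and the CCAAT box more often than the start regions of all genes do. RefSeq promoter windows (GRCm38.p6, 250 bases before to 50 after a transcript start) were matched for 36 of the 42 genes, with 40 windows. Aurkb, Ccna2, Cdc25c, Kif20a, Smc4 and Tpx2 had none. The letters TTTGAA, on either strand, stood in 28 of 40 windows (70.0%) against 17.9% of all 32851 windows of this length. CCAAT, on either strand, stood in 33 (82.5%) against 37.4% of all, and both in 25 (62.5%) against 6.95%. A match of each overlapped in 1 window, that of Cdca8. Of 46 windows of further G2/M genes, 58.7% held TTTGAA, 63.0% CCAAT and 43.5% both, and of 30 windows of S phase genes 10.0%, 60.0% and 6.67%. A match is a description of letters and not a bound site. The 6 windows printed here were chosen to stand for the range of the results below: Nek2 and Plk1 had the lowest ratios, Cdk1 and Ube2c were near the middle, and Hmmr and Bub1b were among the highest. Each is written 5′ to 3′ on the gene's own strand, and capitals mark TTTGAA and CCAAT or their reverse complements TTCAAA and ATTGG.
Nek2, chr1:191821223-191821522, plus strand: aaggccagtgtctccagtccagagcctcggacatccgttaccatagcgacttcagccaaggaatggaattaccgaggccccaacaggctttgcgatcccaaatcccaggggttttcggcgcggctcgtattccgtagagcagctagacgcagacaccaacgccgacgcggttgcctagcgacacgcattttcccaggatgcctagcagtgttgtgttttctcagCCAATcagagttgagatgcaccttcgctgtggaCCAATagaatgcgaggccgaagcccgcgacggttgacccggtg
Plk1, chr7:122159185-122159484, plus strand: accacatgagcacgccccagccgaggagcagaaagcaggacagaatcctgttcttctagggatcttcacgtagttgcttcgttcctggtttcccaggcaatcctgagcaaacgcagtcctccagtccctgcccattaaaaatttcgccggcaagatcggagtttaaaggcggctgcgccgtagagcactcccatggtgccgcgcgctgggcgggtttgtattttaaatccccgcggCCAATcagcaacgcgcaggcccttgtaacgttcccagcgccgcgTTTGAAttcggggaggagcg
Cdk1, chr10:69352863-69353162, minus strand: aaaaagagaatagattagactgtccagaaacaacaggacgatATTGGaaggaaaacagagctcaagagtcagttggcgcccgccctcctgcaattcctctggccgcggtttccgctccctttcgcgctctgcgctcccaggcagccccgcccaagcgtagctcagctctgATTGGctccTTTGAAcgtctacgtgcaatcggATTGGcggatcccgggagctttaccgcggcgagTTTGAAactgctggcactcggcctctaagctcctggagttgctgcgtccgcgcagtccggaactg
Ube2c, chr2:164769679-164769978, plus strand: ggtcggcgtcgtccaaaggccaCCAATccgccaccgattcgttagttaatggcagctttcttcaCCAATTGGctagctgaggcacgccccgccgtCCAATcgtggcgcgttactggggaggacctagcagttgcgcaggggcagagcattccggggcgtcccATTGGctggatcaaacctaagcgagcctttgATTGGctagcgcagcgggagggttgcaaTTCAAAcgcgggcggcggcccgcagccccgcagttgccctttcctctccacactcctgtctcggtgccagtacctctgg
Hmmr, chr11:40733388-40733687, minus strand: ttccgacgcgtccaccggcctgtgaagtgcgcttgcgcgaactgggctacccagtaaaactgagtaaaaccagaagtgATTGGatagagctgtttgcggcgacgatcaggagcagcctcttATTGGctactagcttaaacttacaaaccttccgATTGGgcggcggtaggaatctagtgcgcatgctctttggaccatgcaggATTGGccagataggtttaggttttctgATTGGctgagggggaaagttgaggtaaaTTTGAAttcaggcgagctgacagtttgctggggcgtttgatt
Bub1b, chr2:118597961-118598260, plus strand: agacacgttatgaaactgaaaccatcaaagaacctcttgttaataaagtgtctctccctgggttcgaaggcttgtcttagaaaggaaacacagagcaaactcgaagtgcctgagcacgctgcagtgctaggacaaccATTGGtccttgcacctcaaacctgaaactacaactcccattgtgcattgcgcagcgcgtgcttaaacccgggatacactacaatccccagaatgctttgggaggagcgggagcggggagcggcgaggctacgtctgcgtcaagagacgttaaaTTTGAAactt
In Plk1, Hmmr and Bub1b the TTTGAA lay after the transcript start, at 30, 8 and 40 bases, and in Cdk1 it stood at 71 and 15 bases before it. The Nek2 window held no TTTGAA and 2 CCAAT boxes, and the Hmmr window held 5. The RefSeq start of Pttg1, the gene with the highest ratio, lies 270 bases from the GENCODE start, so its window is not shown. The 25 genes with TTTGAA had a median log2 ratio of 0.23 after CX-5461 and the 11 without it 0.36, and both sets ranged from negative to above 1 on the log2 scale. Pttg1 was counted among those without it. Kif2c, Cdca8 and Cdca3 were counted among those with it, though their RefSeq starts lie 3867, 2394 and 629 bases from the GENCODE start.

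After CX-5461 the G2/M genes did not move as 1 group. Their summed level in ES cells was 3938 CPM (3919 to 3957) in control cells and 4676 CPM (4658 to 4693) in treated cells, a log2 ratio of 0.25 (0.24 to 0.26). The median over 11664 genes with at least 200 UMIs was 0.36, so the list sum was higher on library totals and lower, by 0.11 on the log2 scale, relative to the median gene. All 42 genes reached 200 UMIs. On library totals 30 had a log2 ratio above 0 and 12 below it, and relative to the median gene 14 were above and 28 below. A pooled level cannot tell more cells in G2 or mitosis from more RNA per such cell.

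A ratio of at least 1.5 in either direction was used as the call. On library totals 9 of 42 genes were called higher, where 36.4% of all genes were, and 1 was called lower, where 7.48% were. Relative to the median gene the counts were 4 higher, against 21.3% of all genes, and 7 lower, against 17.0%. Both directions were thus near or below the share of all genes on either scaling. The 4 genes that were called higher on both scalings were Pttg1, Bub1b, Hmmr and Gtse1, and Nek2 was the gene called lower on both. Bub1, at a ratio of 1.5 (1.38 to 1.65), lay at the edge of the call, and Cenpe, at 1.48 (1.39 to 1.58), just under it. The authors' tables mark no count of any of the 42 genes as shared with another gene.

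**Figure D1:**
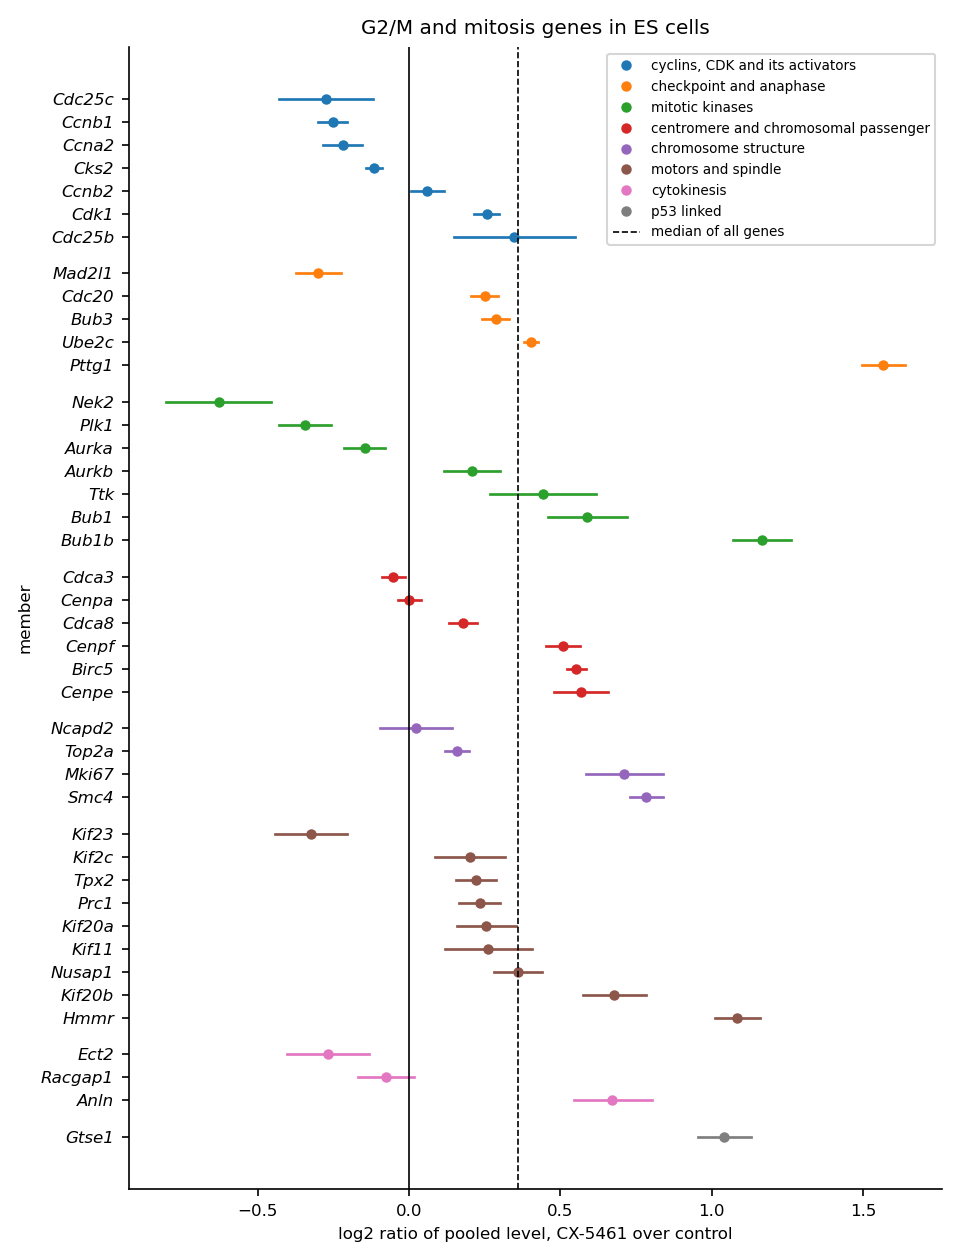
Log2 ratio of the pooled level in ES cells, CX-5461 over control, for each of the 42 genes (points, coloured by role) with the 95% counting interval (bars); the solid line marks 0 and the dashed line the median of all genes, 0.36. Pttg1, Bub1b, Hmmr and Gtse1 lie above 1, and Nek2, at -0.63, lies farthest to the left.

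The cyclins and the proteins that act on Cdk1 all had ratios below that of the median gene, Cdc25b within its interval, and 3 of the 7 lay above 0 on library totals, with a summed level of 1033 CPM in control and 998 CPM after CX-5461. Ccnb1 stood at 161 CPM (157 to 165) in control ES cells and at 135 CPM (132 to 138) after CX-5461, a ratio of 0.839 (0.813 to 0.867). This gene encodes cyclin B1, the main partner of Cdk1 at mitotic entry, and after thinning every cell to 5000 UMIs it was found in 52.9% of cells in the control and 44.9% in the CX-5461 library. Cdk1 stood at 178 CPM (174 to 182) in control ES cells and at 213 CPM (209 to 216) after CX-5461, a ratio of 1.19 (1.16 to 1.23) and a share of 55.2% of cells in the control and 60.5% in the CX-5461 library. The kinase and its cyclin therefore stood on opposite sides of 0 on library totals, and both below the median gene. The log2 ratio was 0.06 for Ccnb2, the second B-type cyclin, -0.22 for Ccna2, the cyclin of S phase and G2, and -0.12 for Cks2, a small subunit of Cdk complexes. Cdc25c stood at 14.7 CPM (13.6 to 15.9) in control ES cells and at 12.2 CPM (11.3 to 13.1) after CX-5461, a ratio of 0.827 (0.743 to 0.922), and was found in 6.29% of cells in the control and 5.61% in the CX-5461 library. Cdc25b stood at 7.51 CPM (6.71 to 8.39) in control ES cells and at 9.56 CPM (8.80 to 10.4) after CX-5461, a ratio of 1.27 (1.11 to 1.46), and was found in 3.67% of cells in the control and 5.06% in the CX-5461 library. These genes encode phosphatases that remove the inhibitory phosphates from Cdk1. Both were scarce, and the intervals of their ratios did not overlap.

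Among mitotic kinases the genes split. Nek2 stood at 13.2 CPM (12.1 to 14.3) in control ES cells and at 8.54 CPM (7.82 to 9.30) after CX-5461, a ratio of 0.647 (0.573 to 0.730), with UMIs in 6.53% of cells in the control and 4.01% in the CX-5461 library. Nek2 encodes a centrosomal kinase (ENSMUSG00000026622.15, chr1:191821444-191833050 of GRCm38, plus strand). Plk1 stood at 48.0 CPM (45.9 to 50.1) in control ES cells and at 37.8 CPM (36.3 to 39.4) after CX-5461, a ratio of 0.788 (0.742 to 0.837), with UMIs in 21.1% of cells in the control and 14.4% in the CX-5461 library. Aurka stood at 72.7 CPM (70.1 to 75.3) in control ES cells and at 65.7 CPM (63.7 to 67.7) after CX-5461, a ratio of 0.904 (0.862 to 0.948), with UMIs in 29.1% of cells in the control and 25.2% in the CX-5461 library. Plk1 and Aurka encode the kinases that mature centrosomes and switch on Cdk1, and all 3 genes were lower on library totals. The log2 ratio was 0.21 for Aurkb, the kinase of the chromosomal passenger complex, 0.44 for Ttk (Mps1) and 0.59 for Bub1, both kinases of the spindle checkpoint. Bub1b stood at 28.2 CPM (26.6 to 29.8) in control ES cells and at 63.2 CPM (61.3 to 65.2) after CX-5461, a ratio of 2.24 (2.1 to 2.40), with UMIs in 12.7% of cells in the control and 27.5% in the CX-5461 library. Bub1b encodes the checkpoint protein BubR1 (ENSMUSG00000040084.9, chr2:118598211-118641591).

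Of the genes that act at the checkpoint and anaphase, Pttg1 had the highest ratio of all 42. Pttg1 stood at 46.6 CPM (44.5 to 48.7) in control ES cells and at 138 CPM (135 to 141) after CX-5461, a ratio of 2.96 (2.82 to 3.11), with UMIs in 17.5% of cells in the control and 36.3% in the CX-5461 library. Pttg1 encodes securin, the inhibitor of the separase that cuts cohesin (ENSMUSG00000020415.16, chr11:43420250-43426251). Without it the log2 ratio of the list sum was 0.22. Mad2l1 stood at 64.8 CPM (62.4 to 67.3) in control ES cells and at 52.7 CPM (50.9 to 54.5) after CX-5461, a ratio of 0.813 (0.772 to 0.855), with UMIs in 25.8% of cells in the control and 22.7% in the CX-5461 library. Mad2l1 encodes Mad2, the inhibitor of Cdc20, and it was the gene of this group that lay below 0. Cdc20 stood at 153 CPM (149 to 157) in control ES cells and at 182 CPM (179 to 186) after CX-5461, a ratio of 1.19 (1.15 to 1.23), with UMIs in 50.4% of cells in the control and 54.8% in the CX-5461 library. Ube2c stood at 487 CPM (480.4 to 494) in control ES cells and at 644 CPM (638 to 650.3) after CX-5461, a ratio of 1.32 (1.3 to 1.34), with UMIs in 80.7% of cells in the control and 87.2% in the CX-5461 library. Ube2c, the ubiquitin-conjugating enzyme of the anaphase-promoting complex, had the most UMIs of the 42 genes in both libraries. Bub3, a checkpoint protein, had a log2 ratio of 0.29.

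In the group of centromere and chromosomal passenger genes the log2 ratios ran from -0.05 to 0.57. The lowest was that of Cdca3, a trigger of mitotic entry that was placed in this group. Cenpa stood at 219 CPM (215 to 224) in control ES cells and at 219.6 CPM (216 to 223) after CX-5461, a ratio of 1.00 (0.974 to 1.03), with UMIs in 62.4% of cells in the control and 56.1% in the CX-5461 library. Cenpa is the histone H3 variant of centromeres, and its level was the same within counting error while its share of cells was lower. Cenpe stood at 35.6 CPM (33.8 to 37.4) in control ES cells and at 52.7 CPM (50.9 to 54.5) after CX-5461, a ratio of 1.48 (1.39 to 1.58), with UMIs in 16.0% of cells in the control and 21% in the CX-5461 library. Birc5 stood at 273 CPM (268 to 278) in control ES cells and at 401 CPM (396 to 406) after CX-5461, a ratio of 1.47 (1.43 to 1.5), with UMIs in 72.8% of cells in the control and 84.0% in the CX-5461 library. Cenpe is a kinetochore motor and Birc5 (survivin) a passenger subunit, and both lay above the median gene. Cdca8 (borealin), another passenger subunit, had a log2 ratio of 0.18, and Cenpf, a kinetochore protein, of 0.51.

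The 4 genes of chromosome structure all had log2 ratios above 0 on library totals, and 2 of them, Mki67 and Smc4, lay above the median gene. Top2a stood at 194 CPM (190.2 to 199) in control ES cells and at 217 CPM (214 to 221) after CX-5461, a ratio of 1.12 (1.09 to 1.15), with UMIs in 58.8% of cells in the control and 62.3% in the CX-5461 library. Mki67 stood at 17.1 CPM (15.8 to 18.4) in control ES cells and at 27.9 CPM (26.6 to 29.3) after CX-5461, a ratio of 1.64 (1.5 to 1.79), with UMIs in 8.94% of cells in the control and 12.5% in the CX-5461 library. Top2a is the topoisomerase that untangles sister chromatids, and Mki67 encodes Ki-67, which coats mitotic chromosomes. Smc4 stood at 87.7 CPM (84.9 to 90.6) in control ES cells and at 151 CPM (148 to 154) after CX-5461, a ratio of 1.72 (1.66 to 1.79), with UMIs in 34.5% of cells in the control and 51.4% in the CX-5461 library. Smc4 is a core subunit of condensin, and Ncapd2, another condensin subunit, had a log2 ratio of 0.02 with an interval that held 0.

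Among motors and spindle proteins 8 of 9 had log2 ratios above 0 on library totals. Hmmr stood at 46.2 CPM (44.1 to 48.3) in control ES cells and at 97.8 CPM (95.4 to 100.3) after CX-5461, a ratio of 2.12 (2.01 to 2.23), with UMIs in 20.3% of cells in the control and 35.5% in the CX-5461 library. Hmmr encodes a protein that binds spindle microtubules (ENSMUSG00000020330.16, chr11:40701395-40733422). Kif23 stood at 25.6 CPM (24.1 to 27.2) in control ES cells and at 20.5 CPM (19.4 to 21.6) after CX-5461, a ratio of 0.799 (0.736 to 0.867), with UMIs in 11.7% of cells in the control and 9.45% in the CX-5461 library. Kif23 encodes the kinesin MKLP1 of the central spindle and was the 1 gene of the group below 0. The log2 ratios of the other kinesins were 0.26 for Kif11, which pushes spindle poles apart, 0.25 for Kif20a, 0.68 for Kif20b and 0.20 for Kif2c, which takes microtubules apart. Tpx2, an activator of Aurora A, had 0.22, Nusap1, a microtubule bundler, 0.36 and Prc1, the bundler of the midzone, 0.23. Kif20b was thus the other gene of this group called higher on library totals.

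Of the 3 genes of cytokinesis, Anln, which encodes the contractile ring protein anillin, had a log2 ratio of 0.67. Ect2, the exchange factor that switches on RhoA at the cell equator, had -0.27, and Racgap1, its partner in centralspindlin, -0.08 with an interval that held 0. Gtse1 stood at 33.8 CPM (32.0 to 35.6) in control ES cells and at 69.5 CPM (67.4 to 71.6) after CX-5461, a ratio of 2.06 (1.94 to 2.19), with UMIs in 15.4% of cells in the control and 29.2% in the CX-5461 library. Gtse1 encodes a microtubule-binding protein of G2 and S phase that is known to bind p53. Its ratio was the fourth highest of the 42, after Pttg1, Bub1b and Hmmr.

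Shares of cells were compared next. In cells thinned to 5000 UMIs the share with a UMI was higher after CX-5461 for 28 of the 42 genes and lower for 14, with medians over genes of 19.3% and 26.3%. The same count over all genes is not given here. In feeder cells thinned in the same way the medians over genes were 2.73% and 1.00%. The share in ES cells was above that in feeder cells for 41 of 42 genes in the control library, where Pttg1 was the exception, and for all 42 in the CX-5461 library.

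Cells in which the G2/M genes took a large part of all UMIs were more frequent after CX-5461. In cells thinned to 5000 UMIs the 42 genes together had a median of 19 UMIs per control cell, with a range from 1 to 46, and of 21 per treated cell, with a range from 2 to 74. The control upper quartile was 24 UMIs. Above it lay 24.1% (22.4 to 25.9, Clopper-Pearson) of control cells and 36.9% (35.4 to 38.4) of treated cells. Cells with 40 or more list UMIs numbered 14 in control, 0.572% (0.313 to 0.957), and 206 after CX-5461, 5.14% (4.47 to 5.87). The difference was thus larger in the upper tail than in the median. These counts are relative to all UMIs of a cell and were not set relative to the median gene, whose pooled log2 ratio was 0.36. On that scaling the pooled list sum was lower after CX-5461, at -0.11. At the lower end 23.1% of control and 17.4% of treated cells had under 14 UMIs. The ratio of variance to mean over cells was 2.81 and 4.01, while for 33 S phase genes it was 1.64 and 1.41.

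**Figure D2:**
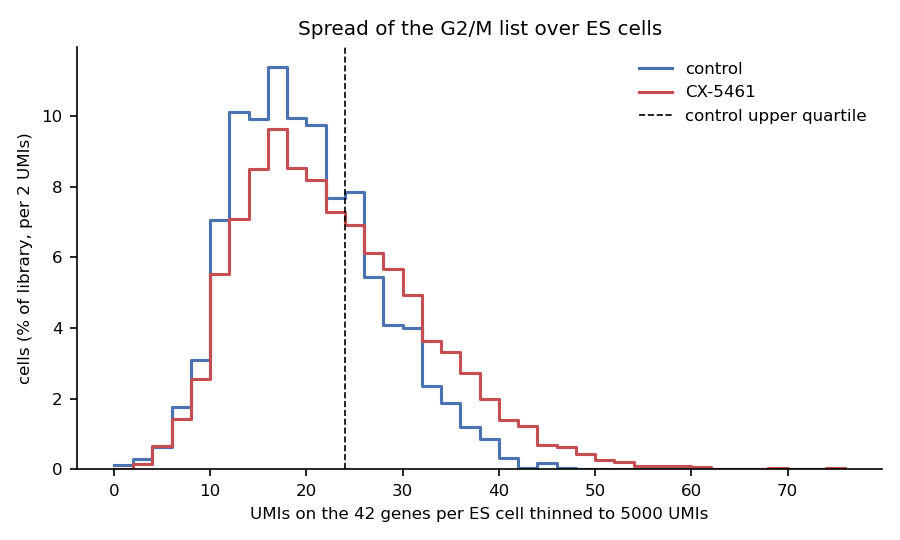
Distribution over ES cells of the UMIs on the 42 genes after each cell was thinned to 5000 UMIs, as percent of the cells of a library per step of 2 UMIs; the dashed line is the control upper quartile of 24. Relative to all UMIs of a cell, the CX-5461 curve runs above the control curve from 26 UMIs on to the last bins, with 206 cells at 40 UMIs or more against 14.

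The depth of a cell moved with this measure although all cells were thinned to the same number of UMIs. In cells with 5000 to 10000 UMIs before thinning, the mean was 18.5 list UMIs in control and 18.8 in treated cells. It was 17.8 and 19.7 from 10000 to 15000 UMIs, and 20.1 and 24.0 from 15000 to 20000. In cells of 20000 UMIs or more it was 21.4 over 649 control cells and 28.8 over 578 treated cells. The libraries were therefore nearly level among shallow cells and apart among deep ones. Spearman's rho between list UMIs and total UMIs was 0.18 over 2449 control and 0.35 over 4010 treated cells, as a description, since the cells of a library share it.

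Each gene was then set against the other 41 over ES cells thinned to 5000 UMIs. Ube2c followed the others most closely, with a Spearman's rho of 0.41 in control and 0.50 in treated cells, followed by Cks2 (0.28 and 0.39) and Cenpa (0.25 and 0.39). Over the 42 genes the median rho was 0.0933 and 0.120, and it was higher after CX-5461 for 32 of them. These coefficients are over cells of 1 library and are given without a test. Bub1b and Gtse1 went from 0.07 and 0.04 in control cells to -0.01 and 0.00 in treated cells, so in treated cells neither followed the rest of the list. Values near 0 were not particular to them. Nek2 had 0.03 in control and 0.02 in treated cells, and in control cells Bub1 had 0.00 and Ncapd2 -0.02.

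**Figure D3:**
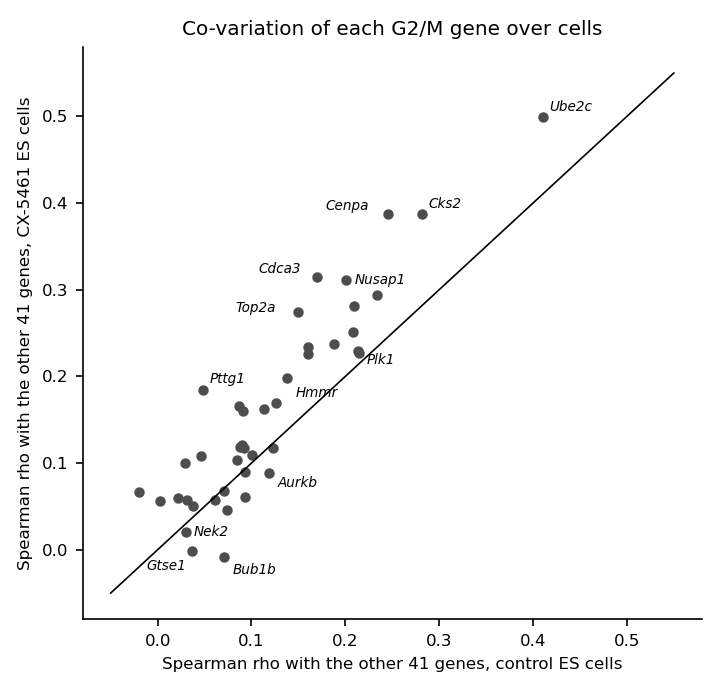
Spearman's rho of each gene with the summed UMIs of the other 41 over ES cells thinned to 5000 UMIs, control on the horizontal and CX-5461 on the vertical axis; each point is 1 gene and the line marks equal values. Most points lie above the line, 32 of 42, while Bub1b and Gtse1 lie at about 0 on the vertical axis.

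Bub1b and Gtse1 were among the genes that were higher after CX-5461 in cells with few other G2/M transcripts. Cells were called low where the other 41 genes together were at or below the control lower quartile and high where they were above the control upper quartile. The ratios below are of thinned UMIs per cell and were not set relative to the median gene, whose log2 ratio in pooled ES cells was 0.36. Bub1b had 0.101 UMIs per low cell in control and 0.360 after CX-5461, a log2 ratio of 1.83 (1.46 to 2.22), and 0.163 and 0.333 per high cell, a log2 ratio of 1.03 (0.71 to 1.36). For Gtse1 the log2 ratio was 1.34 (1.02 to 1.67) in low and 0.98 (0.67 to 1.3) in high cells. Smc4, like Bub1b and Gtse1, had the larger ratio in low cells, at 0.78 (0.57 to 0.99) against 0.53 (0.35 to 0.72) in high cells. Pttg1 was also higher in both classes, with 1.18 in low and 1.79 in high cells, as was Hmmr, with 0.65 and 0.94. Cenpa and Cdca3 were lower after CX-5461 in low cells and within counting error of the control level in high cells. Cenpa had a log2 ratio of -0.62 (-0.82 to -0.43) in low and 0.06 (-0.06 to 0.17) in high cells, and Cdca3 -0.55 and 0.06. Nusap1 and Anln were higher in high cells, at 0.45 (0.22 to 0.69) and 0.98 (0.56 to 1.43), while in low cells their values of -0.20 and 0.09 had intervals that held 0. Nek2 and Plk1 were lower in both, with -0.94 and -0.82 for Nek2 and -0.78 and -0.39 for Plk1. Over all 42 genes the median log2 ratio was 0.01 in low and 0.18 in high cells, with 21 genes above 0 in low and 31 in high cells. The limits come from control cells, and treated cells reach further above the upper one. Low cells of both libraries were held under the same limit on the other 41 genes, so their list totals are alike by construction. A median near 0 in low cells is therefore no result about the genes, and there a rise of some genes goes with a fall of others.

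Cdkn1a, the gene for p21, was higher after CX-5461, but treated ES cells with more Cdkn1a UMIs after thinning differed little in the G2/M genes. Cdkn1a stood at 132 CPM in control and 532 CPM in treated ES cells, a ratio of 4.04 (3.93 to 4.16), and was found in 42.4% and 88.5% of thinned cells. Treated cells were grouped by Cdkn1a UMIs after thinning. Mean Cdkn1a UMIs per treated cell ran from 2.47 to 2.84 across classes of list UMIs. At counts as low as these, counting error also moves cells between the Cdkn1a groups. How far the groups differ in true Cdkn1a level was not tested. The G2/M list stood at 4505 CPM (4419 to 4593) in 463 cells with 0 Cdkn1a UMIs, at 4588 in 826 cells with 1, at 4465 in 845 with 2 and at 4523 in 1204 with 3 to 4. It was 4242 CPM (4173 to 4312) in 672 cells with 5 or more, a log2 ratio against cells with 0 of -0.09 (-0.12 to -0.05). With high Cdkn1a set at 1 or more UMIs in place of 5 the log2 ratio was -0.011. With the mitochondrial limit raised to 0.2 it was -0.16, where thinning still kept only cells of at least 5000 UMIs. The first 4 classes lay within 4465 to 4588 CPM, and the top class lay just below them. Over 4010 treated cells Spearman's rho between Cdkn1a and list UMIs was -0.04, and over 2449 control cells it was 0.06, both given without a test. Between the UMIs of the other 21 p53 targets and the list UMIs rho was -0.13 in treated and 0.06 in control cells. These p53 targets went from 2676 to 3222 CPM between the same classes, and the median depth from 14802 to 13818 UMIs. The control library had 16 cells with 5 or more Cdkn1a UMIs, at 3375 CPM (2984 to 3803) of the G2/M list, against 3819 CPM in 1410 cells with 0.

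**Figure D4:**
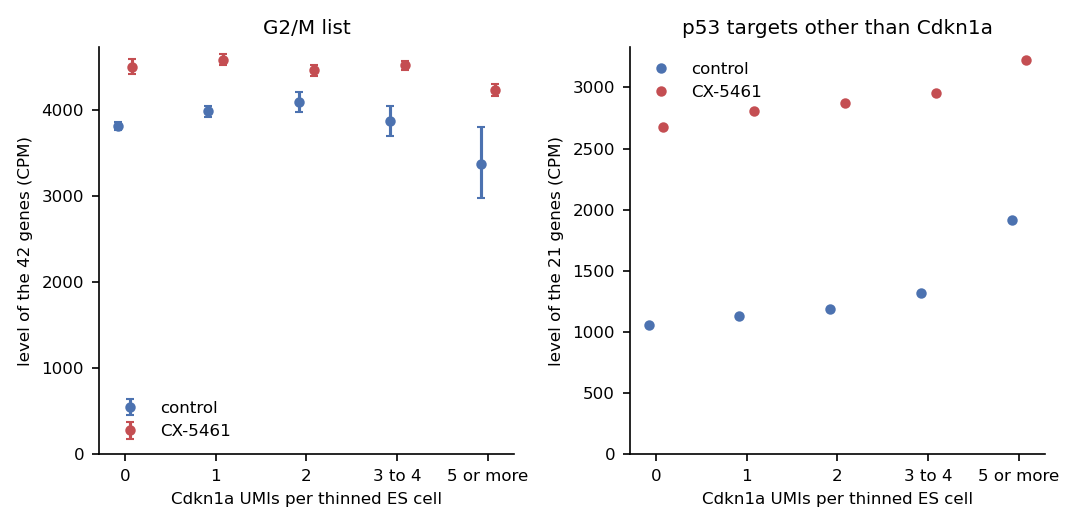
Level of the 42 G2/M genes (left, CPM with 95% Poisson intervals) and of 21 p53 targets other than Cdkn1a (right, CPM) in ES cells grouped by Cdkn1a UMIs after thinning to 5000 UMIs, for control and CX-5461. In treated cells the G2/M list runs from 4505 CPM at 0 Cdkn1a UMIs to 4242 at 5 or more, and the p53 targets from 2676 to 3222.

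Between treated cells with 5 or more and with 0 Cdkn1a UMIs, 29 of the 42 genes reached 200 UMIs. Nusap1 was called lower, with 60.5 CPM (50.9 to 71.4) in cells with 0 and 39.0 CPM (32.6 to 46.3) in cells with 5 or more, where 0.572% of 3320 genes were called lower. No gene of the list was called higher, where 0.422% of all genes were. Both shares were the same relative to the median gene, whose log2 ratio was 0.00. The interval lay below 0 for 8 genes and above 0 for 1, Gtse1, with a log2 ratio of 0.35 (0.05 to 0.65). The share of all genes with such intervals is not given here, so these counts are a description. Cenpa had -0.31 (-0.49 to -0.13) and Ube2c -0.20 (-0.30 to -0.10). Ccnb1 and Cdk1 lay at -0.01 and 0.07 with intervals that held 0, so a difference was not detectable at this depth. Seen from the list, 5 or more Cdkn1a UMIs were found in 13.6% of treated cells with under 10 list UMIs, in 20.1% (17.5 to 22.8) with 15 to 19 and in 12.1% (8.01 to 17.4) with 40 or more.

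Other cell cycle genes gave a measure of what the 42 genes share with their class. A further list of 52 G2/M genes had a log2 ratio of its sum of 0.28 and a median of 0.26. Its calls are read against 7.48% of all genes called lower and 36.4% higher on library totals, and 17.0% and 21.3% relative to the median gene. Of the 52 genes 0 were called lower and 8 higher on library totals, and 5 and 4 relative to the median gene. Its lowest genes were Wee1, the kinase that inhibits Cdk1, at -0.47, Sgo1 at -0.44 and Ncapg2 at -0.40. Its highest were Kif18b at 1.35, Ckap2 at 1.59 and Psrc1, a spindle protein, at 1.94, from 40.6 to 156 CPM. Both G2/M lists thus lay near each other and held a few genes far above the rest. The 33 S phase genes had a log2 ratio of their sum of 0.05, with 4 called lower and 6 higher on library totals and 8 and 0 relative to the median gene, to be read against the same shares of all genes. Cdca7, Uhrf1 and Hells were lowest at -1.0, -0.92 and -0.88, and Rfc4, Tipin and Prim1 highest at 0.76, 0.78 and 0.79. Of 22 p53 targets, 20 were called higher on library totals, where 36.4% of all genes were, and 17 relative to the median gene, where 21.3% were, and the sum had a log2 ratio of 1.46. They ran from Gadd45a, Aen and Bax at 0.29, 0.45 and 0.74 to Pmaip1 at 4.35, Perp at 4.39 and Fas, with 2 control UMIs, at 8.03 (6.18 to 11.08).

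In feeder cells the G2/M genes were low in both libraries and lower after CX-5461. Their sum was 577 CPM (553 to 601) in control and 318 CPM (301 to 337) in CX-5461 feeder cells, a log2 ratio of -0.86 (-0.96 to -0.75), where the median of 3599 genes was 0.17. The sum came to 14.6% of the ES level in control and 6.81% after CX-5461, where the ES marker list came to 2.73% and 1.69%. Single ES markers ranged from 1.10% to 85.5% in control and from 0.585% to 55.2% after CX-5461, so not all of them were absent from feeder cells. A few cells carried much of it. In 12 of 165 control and 2 of 150 CX-5461 feeder cells the list stood above 0.5 of the ES median, and without these cells it was 332 and 285 CPM, a log2 ratio of -0.22. The median over cells was 317 and 259 CPM. Feeder cells with ES-like levels of these genes were thus 3 in control and 0 after CX-5461 when the full ES median was the limit, and 0 of 150 allows a share of up to 2.00% when 3 counts are taken as the limit.

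**Figure D5:**
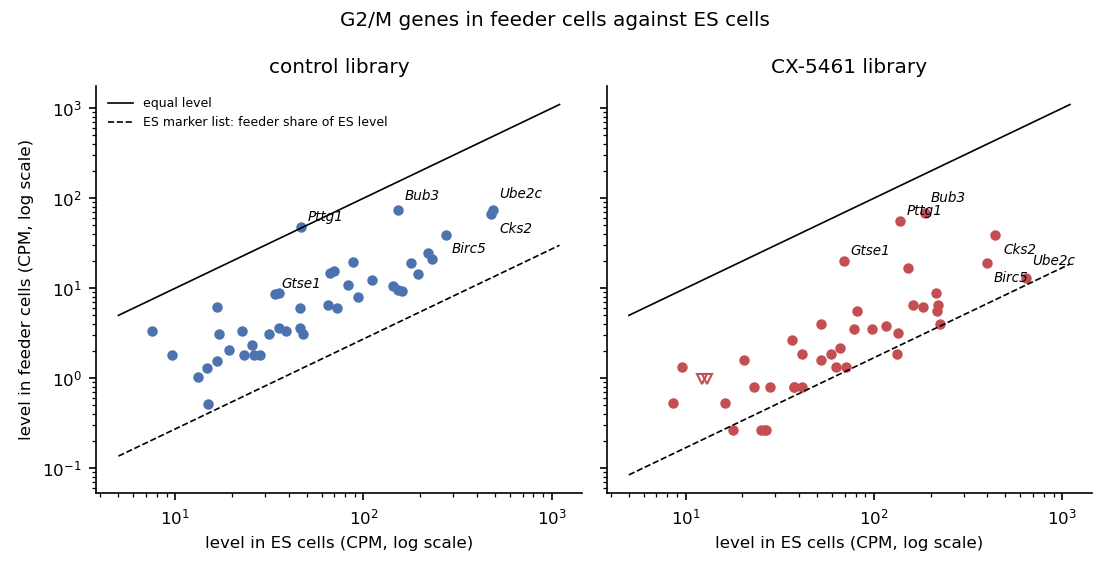
Level of each of the 42 genes in feeder cells (vertical axis, CPM, log scale) against ES cells (horizontal axis, CPM, log scale), control on the left and CX-5461 on the right; open triangles are the 2 genes with 0 UMIs in CX-5461 feeder cells, drawn at the upper end of their Poisson interval. The solid line marks equal levels and the dashed line the feeder share of the ES level for the ES marker list, 2.73% and 1.69%; Pttg1 lies on the solid line in control and Bub3 and Pttg1 lie highest after CX-5461.

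Of the 42 genes 5 reached 200 UMIs in feeder cells: Bub3, Cks2, Pttg1, Ube2c and Birc5. On library totals 3 of them, Cks2, Ube2c and Birc5, were called lower, where 10.8% of all genes were, and none was called higher, where 21.1% were. Relative to the median gene the same counts held, against 15.1% and 14.1%. Ube2c went from 74.0 to 13.2 CPM, Cks2 from 66.4 to 39.2 and Birc5 from 39.3 to 19.1. Bub3 stood at 73.7 and 69.3 CPM, and Pttg1 at 47.9 CPM (41.3 to 55.4) and 55.9 CPM (48.6 to 64.0). In control cultures the Pttg1 level in feeder cells was within counting error of that in ES cells. Gtse1, with 33 and 74 UMIs and so under the minimum of 200, stood at 8.60 and 19.9 CPM, a log2 ratio of 1.21 (0.60 to 1.85). It was the only gene of the 42 with an interval above 0. Several other genes under the minimum had intervals below 0, such as Ccna2 at -3.03 (-4.72 to -1.69) and Cdca3 at -2.39 (-3.29 to -1.58). Cdkn1a was 1365 and 2505 CPM in the same cells. Ttk and Cdc25c had 7 and 5 UMIs in control feeder cells and none after CX-5461.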

How the data were processed

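Libraries of untreated and CX-5461-treated mES cells were made with 10x Genomics 3' V2 reagents. The authors deposited 1 table of raw UMI counts per gene and cell for each condition. Per the study's methods these came from an earlier droplet pipeline whose aligner was Bowtie, without a version, and the processing notes name Seurat 2.3.4 and mm10. There were 49610287 counts in 3838 control cells and 69841836 in 4922 cells after CX-5461. Identifiers were matched to GENCODE vM21 symbols, 52480 of 54146 with version and 54079 without.

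Counts were summed per library and cell class and divided by their total to give CPM. Exact 95% intervals were Poisson for levels, Clopper-Pearson for shares and binomial given the summed counts for ratios, all for counting error only. Cells were thinned without replacement to 5000 UMIs for per-cell values. Genes needed 200 UMIs over both groups. Cells with markers of both classes were left out and no doublet caller was run. With 1 library per condition no p-value was computed. The scripts were tested on simulated data. Python 3.11.15 with numpy 2.4.6, scipy 1.17.1 and pandas 2.3.3 was used, and edgeR 4.0.16 in R 4.3.3 for TMM factors alone.

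The members and lists were chosen with earlier results of these data known. Full values are given for the 5 lowest and 5 highest ratios and for Ccnb1, Cdk1, Cdc20, Plk1, Aurka, Top2a, Mki67, Cenpa, Cenpe, Ube2c, Birc5, Cdc25b, Cdc25c and Gtse1, and for the other lists the 3 lowest and 3 highest. Genes named for their pattern over cells were chosen after their values were seen. Alternatives were other scalings, cell filters, thinning depths and Cdkn1a limits.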

Additional observations from a re-analysis of the deposited data

Results flagged for a closer look

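On library totals the summed G2/M level had opposite signs in the cell types. The log2 ratio of CX-5461 over control was 0.25 in ES cells and -0.86 in feeder cells. The difference was not tested, since each condition was 1 library. Relative to the median gene of each cell type both were negative, at -0.11 and -1.03. Samples that stand apart within a group could not be looked for with 1 library per condition.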

How the results depend on the processing

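The direction of the G2/M list in ES cells rests on the scaling. Against a log2 ratio of 0.25 on library totals, the sum was -0.11 relative to the median gene and -0.15 with TMM factors, so it changed sign under both. Without ribosomal protein and mitochondrial genes in the totals it was 0.18, as a mean over cells 0.21, in thinned cells 0.20, without the 5% of ES cells with most UMIs 0.19, in cells of 10000 to 20000 UMIs 0.21 and without Pttg1 0.22. Genes called lower went from 1 to 7 relative to the median gene, to 8 with TMM and to 0 with cells of at least 500 UMIs and at most 0.2 on mitochondrial genes. Genes called higher went from 9 to 4 under either scaling. The difference in median UMIs per cell went from 2 to 4 when cells were thinned to 8000 UMIs. Counts at that depth are larger in themselves, and cells under 8000 UMIs drop out. The 36.9% of treated cells above the control upper quartile became 35.0% without the 5% of cells with most UMIs, 34.4% in cells of 10000 to 20000 UMIs and 33.2% at 3000 UMIs. In feeder cells the log2 ratio of -0.86 became -1.03 relative to the median gene, -1.04 with TMM, -1.01 without Pttg1 and -0.22 without feeder cells above 0.5 of the ES median. Between treated cells with high and no Cdkn1a the log2 ratio of -0.09 became -0.023 with high set from 2 UMIs, -0.011 from 1 UMI and -0.18 in the control library. It was -0.16 with the mitochondrial limit at 0.2, -0.14 without the 5% of cells with most UMIs and -0.13 in cells of 10000 to 20000 UMIs. The cause was not tested. The settings without Pttg1 or without the richest feeder cells, and the Cdkn1a value from counts as deposited, were chosen after seeing the data. The planned thinning for the Cdkn1a comparison is its main setting and was not run again. No paired analysis was possible because the replicate numbers in the labels are not carried by the cells. Genes with few UMIs, most of all in feeder cells, limit single values.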
